A study of Danio rerio with 14 samples.

Results

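The genes described here encode proteins of the extracellular matrix, enzymes that act on it and the integrins that bind it: sparc, fn1a, col1a2, col5a2a, col6a1, lamb1a, timp2b, ugdh, itga5 and itgb5. Chromatin accessibility had been measured by ATAC-seq, in which a transposase cuts open chromatin and reads pile up as peaks, in cardiomyocytes of adult zebrafish ventricles. The members were all peaks to which the authors' annotation gives 1 of these 10 gene names. These were 14 of 22949 peaks in 2 tables, 12 of 16610 peaks in a table shared by 4 groups and 2 of 6339 peaks in a table of the A-Fos experiment. The second table held a peak of itgb5 and a peak of ugdh and none named for the other 8 genes.

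The extracellular matrix is the network of collagens, fibronectin, laminins and sugar polymers around cells, and integrins are the paired receptors that anchor cells to it and carry signals from it through focal adhesions. In the injured zebrafish heart, fibronectin and hyaluronan are laid down near the wound while cardiomyocytes divide, and collagen is deposited and later resolved. Fibroblasts, epicardial cells and endocardial cells are the usual main makers of these proteins, and cardiomyocytes contribute too. An open peak near a gene marks DNA that is reachable by transcription factors. It does not give the level of the gene's RNA.

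The study addressed the AP-1 transcription factor, a dimer of Fos and Jun proteins, in heart regeneration, with 14 libraries in 6 groups. The shared table holds 2 libraries each of gata4:EGFP+ cardiomyocytes taken 4 days after cryoinjury, of uninjured junba OE and of uninjured junbb OE cardiomyocytes, both taken 7 days after overexpression was induced, and of uninjured myl7:nucDsRed+ cardiomyocytes. The A-Fos table holds 3 libraries each of A-Fos (+) and A-Fos (-) cardiomyocytes from the wound border 4 days after cryoinjury. A-Fos is a dominant-negative protein that pairs with Jun proteins and keeps them off DNA. Per the labels' protocols, transgenes were induced by injecting 4-hydroxytamoxifen at 0.5 mg/mL, with ethanol vehicle as the control, so agent and transgene cannot be told apart between the A-Fos groups. The transgenes are written with the prefix CM, and the promoter that drives them is not given in the labels. Cryoinjured fish were males and females of 4 to 12 months. Cells came from pools of 6 hearts. The labels do not say that replicates came from separate fish, so p-values measure the spread between these libraries, which may be technical.

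The groups of the shared table differ in more than injury or transgene. The gata4:EGFP+ and myl7:nucDsRed+ cells were sorted by fluorescence on different reporters, at 5000 cells per reaction. The junba OE and junbb OE cells were isolated by density gradient, at 50000 cells per reaction. The A-Fos cells were isolated by density gradient at 5000 cells per reaction. Injury and sorted population therefore cannot be told apart in gata4:EGFP+ against myl7:nucDsRed+ libraries, and the same holds for transgene, induction, isolation and cell number in junb against myl7:nucDsRed+ libraries. In any group, more cells with an open peak and a more open peak per cell cannot be told apart.

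The values are normalized counts, assumed to be the authors' reads per peak after background correction and division by size factors. A mitochondrial peak, left out of the fits, held 72.0% to 87.9% of the summed values in the shared table and 79.9% to 94.2% in the A-Fos table. The remaining peaks held an estimated 468000 to 1452000 reads per library in the shared table and 129000 to 811000 in the A-Fos table. A single read was worth an estimated 0.531 to 2.04 normalized counts in the shared table and 0.427 to 2.89 in the A-Fos table. These estimates come from the spacing of each library's values and are rough for some libraries. The r2 was 0.0702 for junba OE replicate 2, which gave 2.04 and 468000. It was 0.0656 for A-Fos (+) replicate 3, which gave 2.89 and 129000. Low member values thus rest on few reads. In the myl7:nucDsRed+ libraries (r2 of 0.285 and 0.899), for example, the sparc peak rests on about 8 and 4 reads and the col6a1 peak on about 1 and 4.

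The labelled cell type was set against marker genes. Of 24 cardiomyocyte markers, 16 had a peak, and these peaks summed to 920 to 922 normalized counts in gata4:EGFP+, 515 to 803 in junba OE, 497 to 513 in junbb OE and 1711 to 1987 in myl7:nucDsRed+ libraries. For endothelial and endocardial markers, 11 of 20 had a peak, and the sums were 254 to 255 in gata4:EGFP+, 418 to 461 in junba OE, 676 to 736 in junbb OE and 126 to 131 in myl7:nucDsRed+ libraries. Peaks of 5 of 16 leukocyte markers summed to 108 to 115 in gata4:EGFP+, 84 to 133 in junba OE, 71 to 76 in junbb OE and 50 to 69 in myl7:nucDsRed+ libraries. Peaks of 5 of 15 epicardial and fibroblast markers summed to 190 to 195 in gata4:EGFP+, 158 to 181 in junba OE, 176 to 188 in junbb OE and 215 to 229 in myl7:nucDsRed+ libraries. No marker peak was at 0 in both libraries of a group. The endothelial and endocardial sums thus did not overlap between groups. For leukocyte markers junba OE overlapped gata4:EGFP+, and for epicardial and fibroblast markers junba OE overlapped junbb OE. The part of other cell types in the results on the matrix genes was not tested.

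The 12 member peaks of the shared table lie on 8 chromosomes and are 176 to 643 bp wide. Coordinates are on GRCz11 as deposited. The peaks of col1a2 and itgb5 span the start of the gene, 6 peaks lie inside the gene (those of col5a2a, lamb1a and timp2b, both of itga5 and 1 of ugdh) and 4 lie upstream of it (those of sparc, fn1a and col6a1 and the other of ugdh). Whether the peaks inside genes are exonic, intronic or in a UTR is not given by the files. The authors' annotation places 6 of the 10 genes (col1a2, col6a1, fn1a, itga5, itgb5 and lamb1a) in both the KEGG pathways of matrix-receptor interaction and focal adhesion.

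sparc encodes a matricellular glycoprotein that binds collagen. Its peak (ENSDARG00000019353, chr14:25959431-25959700, centred 2706 bp upstream of the start) held 48 and 66 normalized counts in gata4:EGFP+, 23 and 6 in junba OE, 21 and 20 in junbb OE and 9 and 4 in myl7:nucDsRed+ libraries. Both gata4:EGFP+ libraries lay above all others, and a junba OE library lay within the myl7:nucDsRed+ range. fn1a encodes fibronectin, a ligand of the integrin that contains the itga5 subunit. Its peak (ENSDARG00000019815, chr9:15426830-15427330, 2441 bp upstream) held 50 and 38 normalized counts in gata4:EGFP+, 1 and 4 in junba OE, 14 and 7 in junbb OE and 6 and 12 in myl7:nucDsRed+ libraries. The gata4:EGFP+ libraries stood clear of the rest, the junba OE libraries lay below both myl7:nucDsRed+ libraries, and the junbb OE range crossed theirs.

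The 3 collagen genes encode chains of type I, V and VI collagen. The col1a2 peak (ENSDARG00000020007, chr19:40983048-40983338), on the start site, held 43 and 51 normalized counts in gata4:EGFP+, 19 and 28 in junba OE, 32 and 43 in junbb OE and 18 and 17 in myl7:nucDsRed+ libraries. All libraries of the other groups lay above both myl7:nucDsRed+ libraries. The col5a2a peak (ENSDARG00000031678, chr9:42695488-42695697, inside the gene, 815 bp from the start) held 28 and 16 normalized counts in gata4:EGFP+, 8 and 6 in junba OE, 19 and 20 in junbb OE and 0 and 13 in myl7:nucDsRed+ libraries. The myl7:nucDsRed+ libraries disagreed at this peak, with about 0 and 15 reads, and the junba OE values lay between them. The col6a1 peak (ENSDARG00000074908, chr11:34067096-34067453, 1557 bp upstream) held 40 and 46 normalized counts in gata4:EGFP+, 7 and 14 in junba OE, 25 and 6 in junbb OE and 1 and 4 in myl7:nucDsRed+ libraries. No library of the other groups overlapped the myl7:nucDsRed+ libraries there, and the junbb OE libraries differed between themselves.

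lamb1a encodes a laminin beta chain of basement membranes. Its peak (ENSDARG00000101209, chr25:31624959-31625235, inside the gene, 3998 bp from the start) held 8 and 1 normalized counts in gata4:EGFP+, 17 and 33 in junba OE, 21 and 35 in junbb OE and 3 and 4 in myl7:nucDsRed+ libraries. Here the junb libraries were high and both sorted groups low. timp2b encodes an inhibitor of matrix metalloproteinases. Its peak (ENSDARG00000075261, chr3:57666332-57666563, inside the gene, 548 bp from the start) held 26 and 20 normalized counts in gata4:EGFP+, 13 and 35 in junba OE, 21 and 31 in junbb OE and 8 and 2 in myl7:nucDsRed+ libraries. The myl7:nucDsRed+ libraries lay below the other 3 groups, which overlapped one another.

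ugdh encodes UDP-glucose dehydrogenase, which makes the UDP-glucuronate used for hyaluronan and other glycosaminoglycans. Its upstream peak (ENSDARG00000019838, chr1:23298363-23298680, 3769 bp from the start) held 102 and 84 normalized counts in gata4:EGFP+, 11 and 6 in junba OE, 3 and 18 in junbb OE and 12 and 7 in myl7:nucDsRed+ libraries. Only the gata4:EGFP+ libraries were high at this peak. The ugdh peak near the start (chr1:23294415-23294727, 182 bp inside the gene) held 51 and 56 normalized counts in gata4:EGFP+, 27 and 47 in junba OE, 51 and 43 in junbb OE and 34 and 38 in myl7:nucDsRed+ libraries. This peak is called the ugdh start-site peak below, although it lies inside the gene and does not reach the start. It was open in every library, and the junba OE range enclosed that of the myl7:nucDsRed+ libraries.

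itga5 and itgb5 encode an alpha and a beta integrin subunit. The itga5 peak 129 bp inside the gene (ENSDARG00000006353, chr23:33557944-33558120) held 11 and 2 normalized counts in gata4:EGFP+, 15 and 10 in junba OE, 27 and 22 in junbb OE and 41 and 27 in myl7:nucDsRed+ libraries. The itga5 peak 1559 bp inside the gene (chr23:33556468-33556735) held 18 and 10 normalized counts in gata4:EGFP+, 19 and 24 in junba OE, 11 and 9 in junbb OE and 43 and 65 in myl7:nucDsRed+ libraries. Both were highest in the myl7:nucDsRed+ libraries, and only a junbb OE library, at the 129 bp peak, reached their range. The itgb5 peak (ENSDARG00000012942, chr9:22677282-22677925), on the start site, held 53 and 47 normalized counts in gata4:EGFP+, 75 and 114 in junba OE, 147 and 160 in junbb OE and 54 and 76 in myl7:nucDsRed+ libraries. The junbb OE libraries were the highest, and the junba OE range met that of the myl7:nucDsRed+ libraries.

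**Figure D1:**
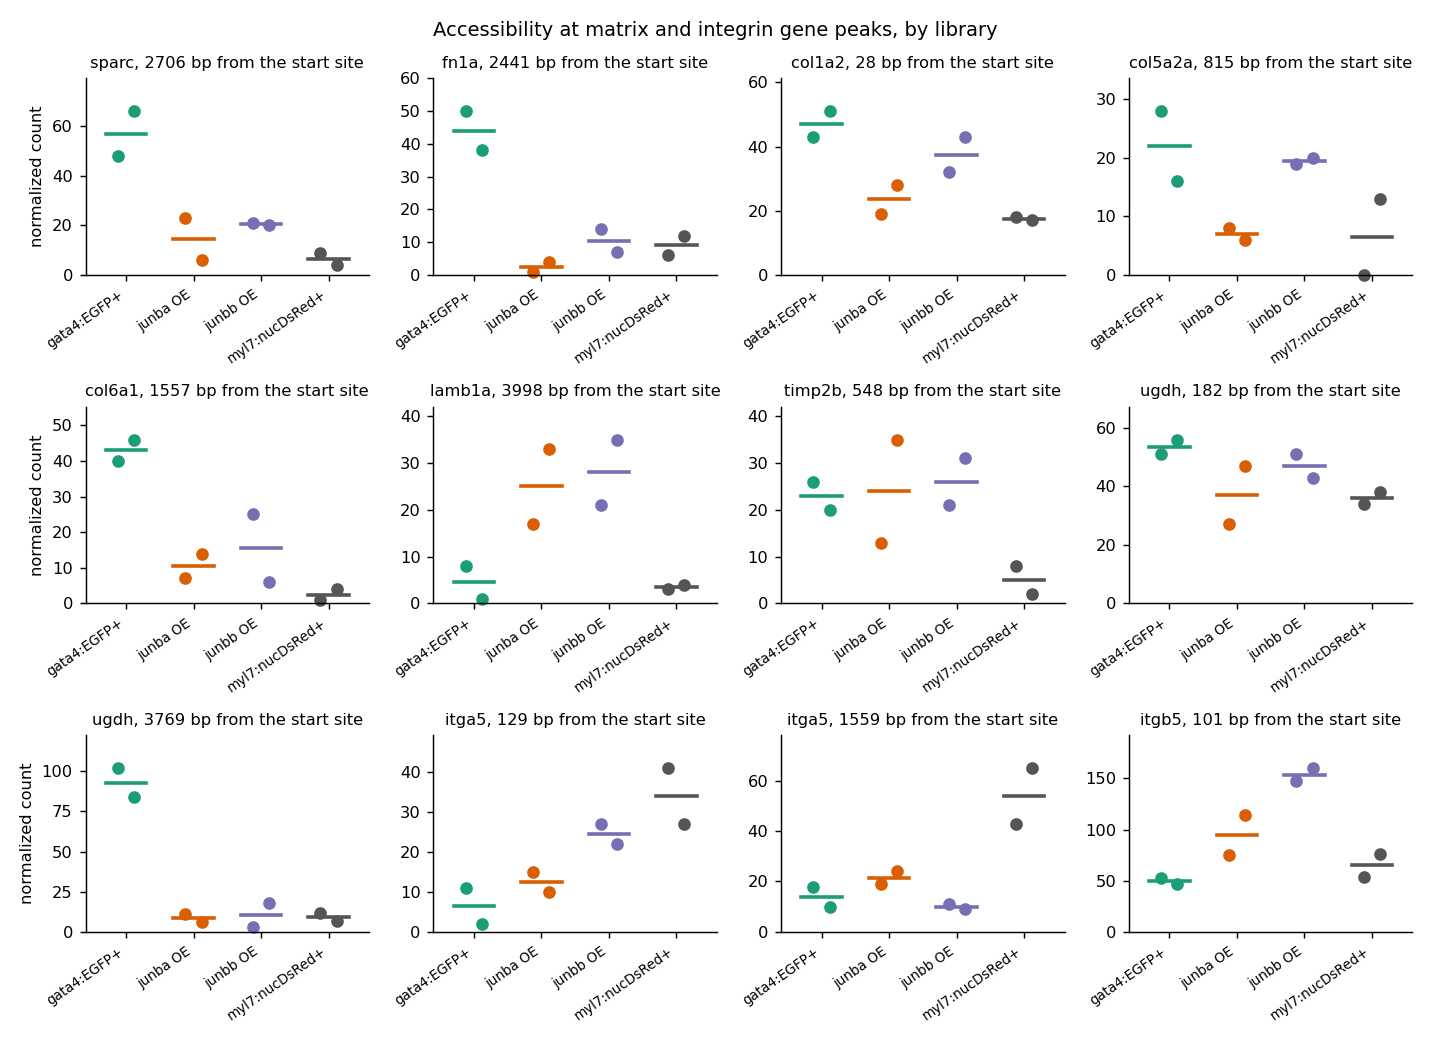
Normalized counts (vertical axes, each from 0) of the 12 member peaks in each of the 8 libraries of the shared table, by group. Points are libraries and bars are group means of 2 libraries. The ugdh peak 3769 bp from the start is high in gata4:EGFP+ libraries only (102 and 84), while both itga5 peaks are highest in myl7:nucDsRed+ libraries.

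Because peaks differ in width, levels were ordered between peaks per 100 bp. In gata4:EGFP+ libraries the upstream ugdh peak led with 29.3 normalized counts per 100 bp, followed by sparc with 21.2, the ugdh start-site peak with 17.1 and col1a2 with 16.2, and lamb1a was lowest with 1.63. In myl7:nucDsRed+ libraries the itga5 peaks led with 20.2 (1559 bp) and 19.3 (129 bp), followed by the ugdh start-site peak with 11.5 and itgb5 with 10.1, and col6a1 was lowest with 0.7. The itga5 peaks overlapped each other over the myl7:nucDsRed+ libraries, as did the ugdh start-site peak and itgb5. In junbb OE libraries itgb5 led with 23.9 normalized counts per 100 bp, against 14.7 in junba OE libraries. Of the 11 pairs of neighbours in these orders, 8 overlapped over the libraries in gata4:EGFP+, 10 in junba OE, 8 in junbb OE and 9 in myl7:nucDsRed+ libraries, so these ranges leave the order of most neighbours unsettled. Both peaks of a pair were measured in the same libraries, which the ranges do not use. In gata4:EGFP+ libraries the upstream ugdh peak stood apart from sparc, and in junbb OE libraries itgb5 stood apart from the ugdh start-site peak.

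Regenerating gata4:EGFP+ cardiomyocytes had more open chromatin than uninjured myl7:nucDsRed+ cardiomyocytes at the peaks of sparc, fn1a, all 3 collagens, timp2b and the upstream ugdh peak. Both itga5 peaks were less open. Of the 12 member peaks, 7 rose, 2 fell and 3 (itgb5, lamb1a and the ugdh start-site peak) did not pass the test, limma on log2(normalized count + 5) at a Benjamini-Hochberg adjusted p under 0.05. Over all 14776 peaks tested, 18.9% were called, 12.3% higher and 6.61% lower. Because the genes were chosen with results of these data known, the members' larger share is a description. The median log2 change of the 12 was 1.34, and of all tested peaks −0.06. Of all calls 65.0% were higher, and 87.8% with libraries scaled to equal totals and 84.2% with libraries centred on peaks near start sites, where the median of all peaks was 0.15 and 0.14. Quantile normalization went the other way, with 56.2% of calls higher. The members had 7 higher and 2 lower calls with equal totals and with centring, and 6 higher and 2 lower with quantile normalization. Changes on this scale understate those of low peaks. The filter was a mean of at least 10 over the 8 libraries. col6a1, fn1a and the upstream ugdh peak passed it only through their gata4:EGFP+ values. Their means over the other groups were 9.5, 7.333 and 9.5 normalized counts, so their calls are a description.

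The largest changes were at the upstream ugdh peak, at col6a1 and at sparc. With any 1 of the 4 libraries left out, the log2 change stayed at 2.52 to 3.02 at the upstream ugdh peak. It stayed at 2.41 to 3.0 at col6a1 and at 2.13 to 2.77 at sparc. The upstream ugdh and col6a1 calls are descriptions, since these peaks passed the filter only through their gata4:EGFP+ values. The upstream ugdh peak averaged 93.0 ± 12.7 normalized counts in gata4:EGFP+ and 9.5 ± 3.54 in myl7:nucDsRed+ libraries (SD, n = 2 each), a log2 change of 2.77 ± 0.46 (SE, limma, adjusted p = 0.000455). For col6a1 the means were 43.0 ± 4.24 in gata4:EGFP+ and 2.5 ± 2.12 in myl7:nucDsRed+ libraries, and the log2 change was 2.70 ± 0.47 (limma, adjusted p = 0.000722). sparc averaged 57.0 ± 12.7 normalized counts in gata4:EGFP+ and 6.5 ± 3.54 in myl7:nucDsRed+ libraries, a log2 change of 2.45 ± 0.44 (limma, adjusted p = 0.000847). All 3 of these peaks lie upstream of their genes, as does that of fn1a. Of 1174 tested peaks beside but outside a gene and over 500 bp from its start, 12.5% were called higher in this comparison, close to the share of all peaks.

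Calls at the other matrix genes were smaller and were lost when certain single libraries were left out. fn1a changed by 1.83 ± 0.44 on the log2 scale (limma, adjusted p = 0.0061), timp2b by 1.55 ± 0.45 (adjusted p = 0.0194), col5a2a by 1.47 ± 0.50 (adjusted p = 0.0429) and col1a2 by 1.20 ± 0.35 (adjusted p = 0.0206). The col5a2a value was 0.55 without myl7:nucDsRed+ replicate 1 and 2.40 without myl7:nucDsRed+ replicate 2, while that of col1a2 stayed between 1.09 and 1.32 without any 1 library. Leaving out gata4:EGFP+ replicate 1 gave adjusted p of 0.103 for fn1a, 0.17 for timp2b, 0.317 for col5a2a and 0.101 for col1a2, and leaving out replicate 2 of that group gave 0.0527, 0.0888, 0.103 and 0.173 for the same genes. fn1a (0.0751), col5a2a (0.518) and col1a2 (0.0737) were also lost without myl7:nucDsRed+ replicate 1, and timp2b (0.197) and col1a2 (0.0914) without myl7:nucDsRed+ replicate 2. For col5a2a, a pseudocount of 1, quantile normalization and estimation without trend or robustness also ended the call, with adjusted p of 0.0768, 0.0822 and 0.0586.

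Both itga5 peaks fell. The itga5 peak at 129 bp averaged 6.5 ± 6.36 normalized counts in gata4:EGFP+ and 34.0 ± 9.9 in myl7:nucDsRed+ libraries, a log2 change of −1.86 ± 0.44 (limma, adjusted p = 0.00517). Its peak at 1559 bp averaged 14.0 ± 5.66 in gata4:EGFP+ and 54.0 ± 15.6 in myl7:nucDsRed+ libraries, a change of −1.64 ± 0.39 (limma, adjusted p = 0.00563). Leaving out gata4:EGFP+ replicate 2 gave adjusted p of 0.142 at 129 bp and 0.111 at 1559 bp. Without myl7:nucDsRed+ replicate 1 it was 0.0721 at 129 bp, and without myl7:nucDsRed+ replicate 2 it was 0.0858 at 1559 bp. itgb5 had a log2 change of −0.33 with a 95% interval of −0.89 to 0.22 (limma, adjusted p = 0.419), lamb1a of 0.058 (−0.90 to 1.02, adjusted p = 0.945) and the ugdh start-site peak of 0.51 (−0.16 to 1.19, adjusted p = 0.29). Beside these values, 7 of 20 tested cardiomyocyte marker peaks were lower and none higher in gata4:EGFP+ libraries, 3 of 12 endothelial and endocardial marker peaks were higher, 1 of 3 leukocyte marker peaks was higher, and 1 of 3 epicardial and fibroblast marker peaks was lower. Over all tested peaks 12.3% were called higher and 6.61% lower. The median log2 change was −0.70 for the cardiomyocyte and 0.56 for the endothelial and endocardial marker peaks. It was 0.14 for the leukocyte and 0.36 for the epicardial and fibroblast marker peaks, the last above 0 although their 1 call was lower.

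With junba overexpressed, 3 of the 12 peaks differed from their level in uninjured myl7:nucDsRed+ cardiomyocytes. lamb1a and timp2b rose and the 1559 bp itga5 peak fell. Over all tested peaks 26.1% were called, 10.3% higher and 15.9% lower, so the share of members called, 25.0%, was near that of all peaks. lamb1a averaged 25.0 ± 11.3 normalized counts in junba OE and 3.5 ± 0.707 in myl7:nucDsRed+ libraries, a log2 change of 1.77 ± 0.46 (limma, adjusted p = 0.00791). timp2b averaged 24 ± 15.6 in junba OE and 5.0 ± 4.24 in myl7:nucDsRed+ libraries, a change of 1.49 ± 0.45 (adjusted p = 0.0172). The itga5 peak averaged 21.5 ± 3.54 in junba OE and 54.0 ± 15.6 in myl7:nucDsRed+ libraries, a change of −1.14 ± 0.39 (adjusted p = 0.0344).

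Each of the 3 junba calls was lost when certain single libraries were left out. lamb1a was lost without myl7:nucDsRed+ replicate 1 (adjusted p = 0.0524) and junba OE replicate 2 (0.0727), and timp2b without myl7:nucDsRed+ replicate 2 (0.183) and junba OE replicate 2 (0.194, with a log2 change of 0.92). The 1559 bp itga5 peak was lost without myl7:nucDsRed+ replicate 1 (0.0528), myl7:nucDsRed+ replicate 2 (0.243) and junba OE replicate 1 (0.0888), and also under equal totals (0.072), quantile normalization (0.0759) and a pseudocount of 1 (0.0583). With only the junba OE and myl7:nucDsRed+ libraries in the fit, timp2b had an adjusted p of 0.0548 and the itga5 peak one of 0.05. Some alternatives added calls. Without junba OE replicate 1, itgb5 had an adjusted p of 0.0485 and the 129 bp itga5 peak one of 0.0401, and without junba OE replicate 2 sparc had one of 0.0384. Centring on start-site peaks also brought the 129 bp itga5 peak past the threshold (adjusted p = 0.0345).

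The other member peaks did not pass the test for junba. fn1a, with 2.5 ± 2.12 normalized counts in junba OE and 9.0 ± 4.24 in myl7:nucDsRed+ libraries, had a log2 change of −0.90 (95% interval −1.81 to 0.01, limma, adjusted p = 0.137). For col6a1 the change was 1.04 (0.06 to 2.02, adjusted p = 0.109) and for the 129 bp itga5 peak −1.15 (−2.05 to −0.25, adjusted p = 0.0548). The remaining values were 0.64 for sparc, 0.50 for itgb5, 0.33 for col5a2a, 0.32 for col1a2, −0.0056 for the ugdh start-site peak and −0.11 for the upstream ugdh peak, with adjusted p from 0.177 to 0.993. The interval of the upstream ugdh peak was −1.05 to 0.84. This peak passed the filter only through its gata4:EGFP+ values. It rests on about 9 and 3 reads in junba OE and about 11 and 8 in myl7:nucDsRed+ libraries. The median over the 12 was 0.32, and over all tested peaks −0.07. Of all calls 39.3% were higher, and 28.3% when centred on start-site peaks, where the median of all peaks was −0.21 and the members had 2 higher and 2 lower calls. Equal totals and quantile normalization went the other way, with 48.7% of calls higher under each, and the members had 2 higher and 0 lower calls.

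With junbb overexpressed, 7 peaks differed from their level in myl7:nucDsRed+ cardiomyocytes. lamb1a, timp2b, col5a2a, col6a1, itgb5 and sparc rose, and the 1559 bp itga5 peak fell. Over all tested peaks 28.8% were called, 12.6% higher and 16.3% lower, against 58.3% of the members. Since the genes were chosen with results of these data known, this larger share is also a description. The median log2 change was 1.04 over the 12 members and −0.02 over all tested peaks. itgb5 averaged 153.5 ± 9.19 normalized counts in junbb OE and 65.0 ± 15.6 in myl7:nucDsRed+ libraries, a log2 change of 1.20 ± 0.27 (limma, adjusted p = 0.00204). The 1559 bp itga5 peak averaged 10.0 ± 1.41 in junbb OE and 54.0 ± 15.6 in myl7:nucDsRed+ libraries, a change of −1.95 ± 0.39 (adjusted p = 0.000777). These calls held without any 1 of the 4 libraries.

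The other junbb calls were each lost without at least 1 library. lamb1a averaged 28.0 ± 9.9 normalized counts in junbb OE and 3.5 ± 0.707 in myl7:nucDsRed+ libraries, a log2 change of 1.93 ± 0.46 (limma, adjusted p = 0.0035), lost without junbb OE replicate 2 (0.0774). timp2b changed by 1.68 ± 0.45 (adjusted p = 0.00695) and was lost without myl7:nucDsRed+ replicate 2 (0.108) and junbb OE replicate 2 (0.1). col5a2a changed by 1.37 ± 0.50 (adjusted p = 0.0432), lost without myl7:nucDsRed+ replicate 1 (0.577), junbb OE replicate 1 (0.139) and junbb OE replicate 2 (0.182). The col5a2a change was 0.44 without myl7:nucDsRed+ replicate 1 and 2.29 without myl7:nucDsRed+ replicate 2. For col6a1 the change was 1.31 ± 0.47 (adjusted p = 0.0416), lost without myl7:nucDsRed+ replicate 1 (0.23), myl7:nucDsRed+ replicate 2 (0.0643) and junbb OE replicate 1 (0.489), with a change of 0.58 without junbb OE replicate 1 and of 2.03 without junbb OE replicate 2. sparc changed by 1.18 ± 0.44 (adjusted p = 0.0461), a call lost without any 1 library, with adjusted p of 0.055 and 0.274 without myl7:nucDsRed+ replicates 1 and 2 and of 0.16 and 0.162 without junbb OE replicates 1 and 2.

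Of all calls for junbb 43.6% were higher, 62.7% with equal totals (median of all peaks 0.24) and 32.8% when centred on start-site peaks (median −0.17). The members had 7 higher calls with equal totals, 3 when centred and 6 with quantile normalization (48.6% of all calls higher), and 1 lower call under each. Centred on start-site peaks, col5a2a, col6a1 and sparc had adjusted p of 0.0768, 0.0774 and 0.0821 for junbb. With a pseudocount of 1, col5a2a had 0.0604 and sparc 0.052, and without trend or robust estimation they had 0.0567 and 0.0571. col1a2, with a log2 change of 0.91 (95% interval 0.18 to 1.63, limma, adjusted p = 0.0568), was called under equal totals (0.0201). The ugdh start-site peak (0.34), fn1a (0.14), the upstream ugdh peak (−0.074) and the 129 bp itga5 peak (−0.38) had adjusted p from 0.472 to 0.921. Endothelial and endocardial marker peaks moved with both junb groups: 8 of 12 were higher in junba OE and 11 of 12 in junbb OE than in myl7:nucDsRed+ libraries, and none lower. Of 20 cardiomyocyte marker peaks, 15 were lower with junba and 16 with junbb, and 1 was higher with each. None of the 3 epicardial and fibroblast marker peaks was called with either gene. Of 3 leukocyte marker peaks, 1 was higher with junba and none was called with junbb. Over all tested peaks 10.3% were called higher and 15.9% lower with junba, and 12.6% higher and 16.3% lower with junbb.

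**Figure D2:**
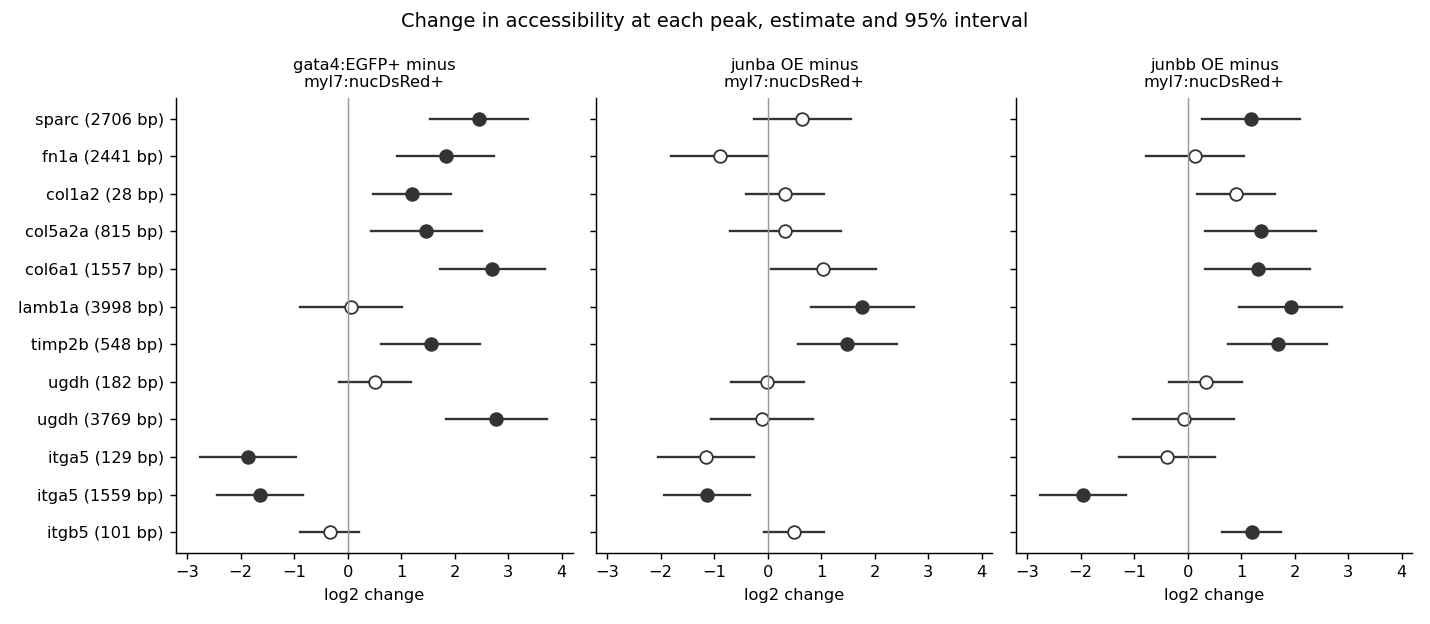
Log2 changes of the 12 member peaks (limma on log2(normalized count + 5); points are estimates and lines 95% intervals, filled where called) for gata4:EGFP+, junba OE and junbb OE libraries, each against the same 2 myl7:nucDsRed+ libraries. The upstream ugdh peak is at 2.77 for gata4:EGFP+ and near 0 for junba OE and junbb OE, and lamb1a is near 0 for gata4:EGFP+ and at 1.77 and 1.93 for junba OE and junbb OE.

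The 3 comparisons share the myl7:nucDsRed+ libraries, so values that are high or low there move all of them together. Set side by side, timp2b was called higher in each of them and the 1559 bp itga5 peak lower in each. The upstream ugdh peak was called only for gata4:EGFP+ libraries, with log2 changes of 2.77 (gata4:EGFP+), −0.11 (junba OE) and −0.074 (junbb OE), and fn1a likewise with 1.83, −0.90 and 0.14. Both peaks passed the filter only through their gata4:EGFP+ values, which favours such a pattern, so it is a description. lamb1a was called for junba OE (1.77) and junbb OE (1.93) and had a value of 0.058 for gata4:EGFP+. The differences between these changes were not tested, except between the junb groups.

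No member peak differed between junba OE and junbb OE libraries at an adjusted p under 0.05 (limma, 0 of 12), where 0.088% of all tested peaks were called, 13 of 14776. At an unadjusted p under 0.05 (limma) there were 3 of the 12 member peaks, and 10.1% of all tested peaks. itgb5 averaged 94.5 ± 27.6 normalized counts in junba OE and 153.5 ± 9.19 in junbb OE libraries, a log2 difference of −0.70 (95% interval −1.25 to −0.14, adjusted p = 0.399). For fn1a the difference was −1.04 (−1.95 to −0.13, adjusted p = 0.433) and for the 1559 bp itga5 peak 0.82 (0.01 to 1.62, adjusted p = 0.488). The groups did not overlap at any of these 3 peaks, nor at the col1a2, col5a2a and 129 bp itga5 peaks. The share of all peaks without overlap was not counted. Since the 3 peaks were also picked by their low p, this is a description. The intervals of the other 9 peaks held 0, and that of col5a2a ran from −2.07 to 0.00. For 11 of the 12 peaks the interval holds a 2-fold difference, so a difference of that size is not excluded there. The remaining peak, the upstream ugdh peak, had an interval of −0.98 to 0.91. It held 11 and 6 normalized counts in junba OE and 3 and 18 in junbb OE libraries. Changes on this scale understate those of such low peaks, so a 2-fold difference in counts is not excluded at this peak either. Equal totals turned the split of the few calls over all peaks, with 40.0% of them higher in junba OE against 61.5% as deposited.

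ugdh and itga5 each had a pair of peaks, which allows a ratio within a library. At ugdh the log2 ratio of the upstream peak to the start-site peak (with 5 added to each) was 0.93 and 0.54 in gata4:EGFP+, −1.0 and −2.24 in junba OE, −2.81 and −1.06 in junbb OE and −1.20 and −1.84 in myl7:nucDsRed+ libraries. The upstream peak was thus the higher of the pair in gata4:EGFP+ libraries only. It passed the filter only through its gata4:EGFP+ values, which favours such a pattern, so the ugdh ratios are a description. The mean difference from myl7:nucDsRed+ libraries was 2.26 for gata4:EGFP+, −0.10 for junba OE and −0.41 for junbb OE. At itga5 the ratio of the 1559 bp to the 129 bp peak was 0.52 and 1.1 in gata4:EGFP+, 0.26 and 0.95 in junba OE, −1.0 and −0.95 in junbb OE and 0.06 and 1.13 in myl7:nucDsRed+ libraries. Only in junbb OE libraries was the peak farther from the start the lower one, with a mean difference of −1.57 from myl7:nucDsRed+ libraries, against 0.22 for gata4:EGFP+ and 0.01 for junba OE. In exact two-sided permutation tests the smallest p that 2 against 2 libraries allow is 0.333. The p was 0.333 for gata4:EGFP+ at ugdh and for junbb OE at itga5, and the other 4 tests gave 1.0. Adjusted over the 6 tests, all were 1.0.

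**Figure D3:**
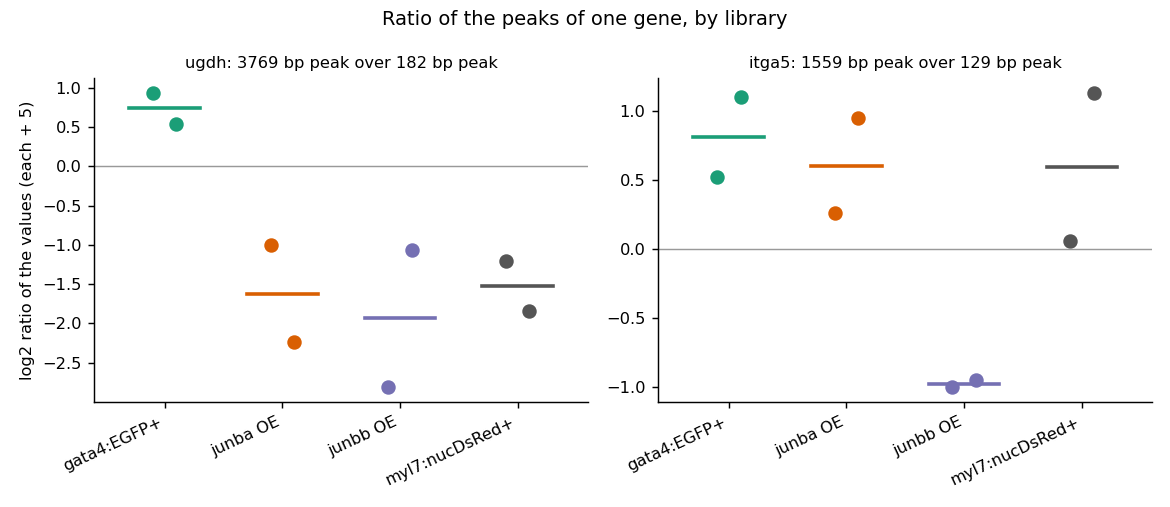
Log2 ratio, within each library, of the peak farther from the start to the nearer peak of ugdh and of itga5 (normalized counts with 5 added). Points are libraries and bars group means. At ugdh only the gata4:EGFP+ libraries lie above 0 (0.93 and 0.54), and at itga5 only the junbb OE libraries lie below it (−1.0 and −0.95).

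In the A-Fos table, neither member peak differed between A-Fos (+) and A-Fos (-) cardiomyocytes. The itgb5 peak (chr9:22677294-22677725) held 62, 58 and 38 normalized counts in A-Fos (+) and 68, 33 and 39 in A-Fos (-) libraries. The ugdh start-site peak (chr1:23294425-23294725) held 21, 61 and 43 in A-Fos (+) and 38, 23 and 59 in A-Fos (-) libraries. The groups overlapped at both peaks. For itgb5 the means were 52.67 ± 12.9 in A-Fos (+) and 46.67 ± 18.7 in A-Fos (-) libraries (SD, n = 3 each) and the log2 change was 0.19 (95% interval −0.45 to 0.83, limma, adjusted p = 1.0). For ugdh they were 41.67 ± 20.0 in A-Fos (+) and 40.0 ± 18.1 in A-Fos (-) libraries, and the change was 0.032 (−0.74 to 0.81, adjusted p = 1.0). Both intervals leave out a log2 change of 1 in either direction, on this scale and as deposited. With equal totals the estimates moved to −0.21 for ugdh and −0.06 for itgb5, so what is left out depends on the scaling. Of 6012 peaks tested there, 0.0% were called (limma, 0 peaks), and 200 (3.33%) had an unadjusted p under 0.05, none of them a member. These peaks overlap in position with the itgb5 peak and the ugdh peak near the start in the shared table, whose values were normalized separately and are not compared with them. The upstream ugdh peak, open in gata4:EGFP+ cells, has no counterpart named for ugdh among the peaks of the A-Fos table. That table holds 6339 peaks against 16610 in the shared table, and a counterpart was sought by gene name only. Its absence therefore does not show that the region was closed.

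**Figure D4:**
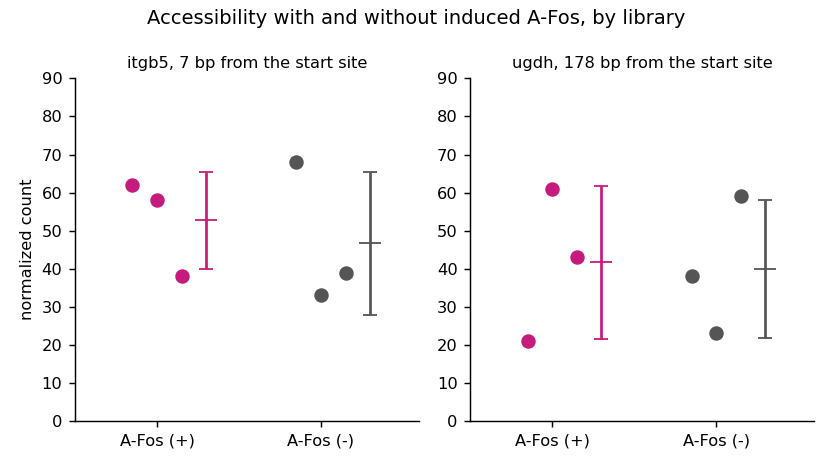
Normalized counts (vertical axis from 0) of the itgb5 and ugdh peaks of the A-Fos table in 3 A-Fos (+) and 3 A-Fos (-) libraries. Points are libraries, and the mark beside them is the mean with its SD. The 2 groups overlap at both peaks.

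Other genes of the matrix and of integrin adhesion were taken from 5 lists holding 306 genes, without the 10 members. Peaks named for 82 of these genes were in the shared table, 91 in all, and 80 passed the filter. In gata4:EGFP+ against myl7:nucDsRed+ libraries 11 of the 80 rose (13.8%) and 5 fell (6.25%), against 12.3% and 6.61% of all tested peaks, and the median log2 change was −0.04. The wider matrix and integrin genes thus had shares near the background. Among 13 peaks of laminins, fibronectins and other glycoproteins 7 rose and none fell (median 1.01). Of these 7, mfap5 and ltbp1 passed the filter only through their gata4:EGFP+ values, with means of 6.5 and 5.5 normalized counts over the other groups, so their calls are a description. Of the other 11 peaks 5 rose, with a median of 0.86. None of 3 collagen peaks was called. Of 22 peaks of matrix enzymes, inhibitors and crosslinkers 2 rose and 3 fell, of 20 peaks of proteoglycans and hyaluronan 1 rose and 1 fell, and of 22 peaks of integrins and their cytoplasmic partners 1 rose and 1 fell.

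The list genes with the largest called changes in gata4:EGFP+ libraries were mostly matrix glycoproteins. thbs3a, a thrombospondin, held 55 and 44 normalized counts in gata4:EGFP+ and 9 and 8 in myl7:nucDsRed+ libraries, and rose by 2.01 ± 0.37 (log2, limma, adjusted p = 0.000991). Its call alone among these 8 genes held without any 1 library. The others were adam8a (1.81, adjusted p = 0.00937), a membrane metalloprotease, mfap5 (1.81, 0.00817), a microfibril protein, hspg2 (1.46, 0.0133), the basement membrane proteoglycan perlecan, cyr61 at its peak 2228 bp from the start (1.42, 0.0153), a matricellular protein with another tested peak at 255 bp, serpinh1a (1.42, 0.0277), a collagen chaperone, ltbp1 (1.37, 0.047), which binds latent TGF-beta, and itga3b (−1.40, 0.0284), an integrin alpha subunit. Their highest adjusted p without a single library ran from 0.0852 for mfap5 to 0.312 for itga3b, and the change of hspg2 was 0.74 without myl7:nucDsRed+ replicate 1.

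Under junba OE 7 of the 80 list peaks rose (8.75%) and 10 fell (12.5%), and under junbb OE 16 rose (20.0%) and 8 fell (10.0%), against 10.3% and 15.9% of all tested peaks for junba and 12.6% and 16.3% for junbb. zyx, which encodes the focal adhesion protein zyxin, had 45 and 31 normalized counts in junba OE, 30 and 39 in junbb OE and 148 and 174 in myl7:nucDsRed+ libraries. It fell by 1.96 ± 0.27 with junba (log2, limma, adjusted p = 6.04e-05) and by 2.08 ± 0.27 with junbb (adjusted p = 2.34e-05). adam12, a metalloprotease gene, had 19 and 45 normalized counts in junba OE, 43 and 51 in junbb OE and 3 and 7 in myl7:nucDsRed+ libraries, a rise of 1.82 ± 0.43 with junba (adjusted p = 0.00393) and 2.40 ± 0.43 with junbb (adjusted p = 0.000317). The fibulin gene efemp2a fell by 2.35 with junba and by 2.14 with junbb, and emilin1a, which encodes an elastic fibre protein, by 1.58 with junba and by 1.70 with junbb.

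Further calls at list genes for junba were falls by 1.64 at vcla, a vinculin gene (adjusted p = 0.00634), by 1.53 at adamts15a (0.00422) and by 1.40 at adam17b (0.00125), and a rise of 1.39 at adam8a (0.0299). For junbb they were rises of 1.73 at thbs3a (0.0013), 1.72 at hspg2 (0.00236) and 1.52 at adamts2 (0.0127). The adamts2 peak passed the filter only through its junbb OE values (mean 7.833 over the other groups), so its call is a description. The ltbp3 peak 3614 bp from the start rose by 1.64 (limma, adjusted p = 0.00516). Its peak at 4757 bp was not called and went the other way, with 11 and 10 normalized counts in junbb OE and 32 and 19 in myl7:nucDsRed+ libraries. Without 1 library in turn, the calls at efemp2a, emilin1a, adam17b and zyx held for junba and those at efemp2a, thbs3a, adam12 and zyx for junbb. The others were lost in at least 1 omission, with highest adjusted p of 0.0516 for adamts15a, 0.0591 for adam12, 0.0692 for vcla and 0.275 for adam8a for junba, and of 0.0523 for emilin1a, 0.074 for hspg2, 0.107 for ltbp3 and 0.18 for adamts2 for junbb. Without myl7:nucDsRed+ replicate 1 the junbb change was 1.01 for hspg2 and 0.97 for adamts2, and the junba change of adam8a was 0.89 without myl7:nucDsRed+ replicate 2 and 0.92 without junba OE replicate 2. None of the 80 differed between junba OE and junbb OE libraries, and none of 27 tested list peaks of the A-Fos table differed between A-Fos (+) and A-Fos (-) libraries.

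**Figure D5:**
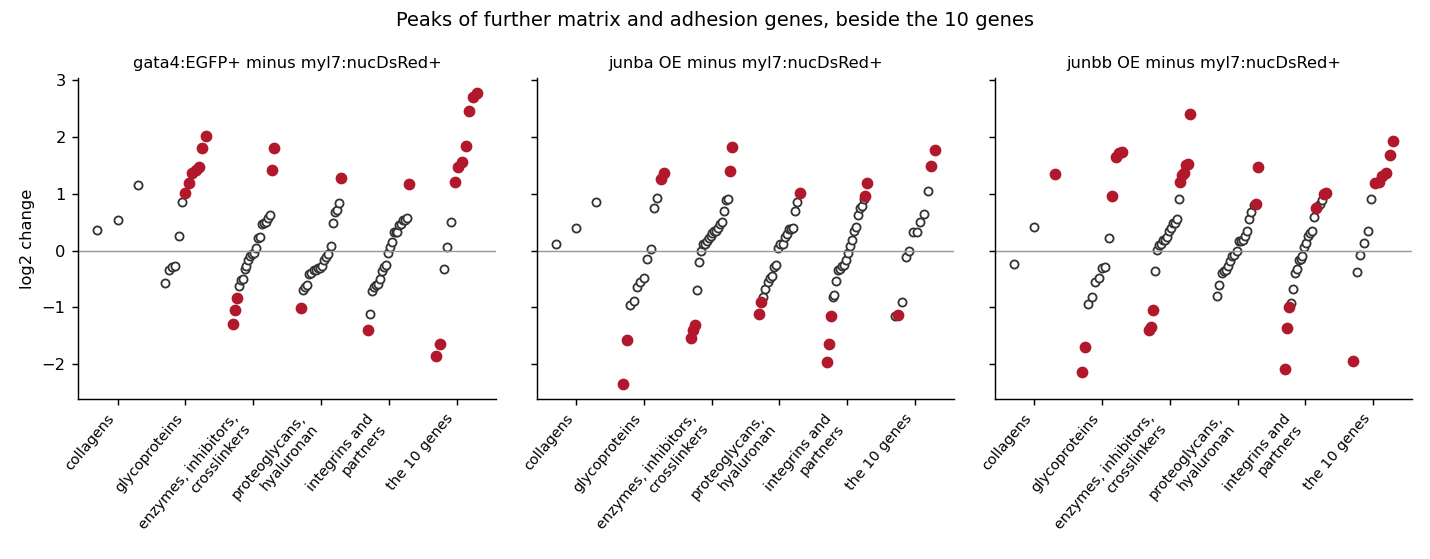
Log2 changes of the 80 tested peaks of the 5 matrix and integrin lists (members left out) in gata4:EGFP+, junba OE and junbb OE libraries, each against myl7:nucDsRed+ libraries. Points are peaks, filled where called, and the last column of each panel holds the 12 member peaks. Glycoprotein peaks have a median of 1.01 in gata4:EGFP+ and of −0.49 in junba OE and −0.30 in junbb OE libraries.

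The peaks nearest to sparc, fn1a and the 1559 bp itga5 peak over the 8 libraries were found by Euclidean distance between log2(normalized count + 5) values centred on each peak's mean. For sparc they were ppp2r5b (distance 0.846, Pearson r 0.95), nrg3b (1.02, 0.95) and si:busm1-57f23.1 (1.03, 0.93). For fn1a they were snrnp48 (0.969, 0.94), vegfd (0.993, 0.95) and tmem169a (0.999, 0.97). For itga5 they were adrb1 (0.642, 0.96), pgam2 (0.773, 0.94) and ttn.1 (0.84, 0.95), 3 genes with their own peaks within 291 bp of the start. The libraries share their groups, so these likenesses are descriptions without a test. The peaks of fn1a, vegfd, tmem169a and si:busm1-57f23.1 passed the filter only through their gata4:EGFP+ values, which favours likeness between them. vegfd held 26 and 46 normalized counts in gata4:EGFP+, 0 and 0 in junba OE, 8 and 2 in junbb OE and 3 and 5 in myl7:nucDsRed+ libraries, with group means in the same order as those of fn1a. At both genes the junbb OE and myl7:nucDsRed+ libraries overlapped, so the order of these groups is unsettled.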

How the data were processed

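Per the submitters' processing notes, the authors used DESeq, DESeq2 1.18.1, deepTools 2.5.7, MACS2, Trimmomatic 0.36, Picard 2.18.16 and STAR 2.6.1d, with builds danRer11 and GRCz11 and no order stated. Mapping filters, read shifts and peak thresholds are not given in the sources used here. The deposited values are a score. They are assumed to be the reads of each peak after background correction and size factors within each table, and are rounded. How background was corrected is not stated. Tables were therefore not compared and no count model was fitted. Per the file headers, the annotation gives 1 gene per peak, the unsigned distance from peak centre to gene start, and the overlap with the gene body as a fraction of the peak. Of the value columns, 0 were left without a sample. Low values rest on few reads and have large counting error.

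Peaks with a mean of at least 10, without the mitochondrial peak, were fitted on log2(value + 5) by limma 3.58.1 (R 4.3.3), with trend and robust estimation, two-sided, over all 8 libraries of the shared table or all 6 of the A-Fos table, adjusted over all tested peaks (Benjamini-Hochberg) and called under 0.05. The procedure was run on simulated data with known changes and noise drawn independently for each peak. Such data do not test the scaling between groups, and their outcome is not used as support here. The value of 1 read was estimated from the spacing of each library's values. Python 3.11.15, NumPy 2.4.6, pandas 2.3.3 and Matplotlib 3.10.9 were used. Every member peak was named, and of 5 gene lists at most the 8 called peaks per comparison with the largest change. For each of sparc, fn1a and itga5 the highest member peak was given its 3 nearest peaks. Members and lists were chosen with earlier results of these data known, and the ratio of peaks within ugdh and itga5 after their values were seen. Alternatives were other pseudocounts, filters, scalings and samples, the replicate number as a block, and single libraries left out. A planned motif search was not made, since no genome sequence was used here.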

Additional observations from a re-analysis of the deposited data

How the results depend on the processing

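Of 920 alternative values for named peaks, 782 kept their direction and side of the threshold, 95 lost significance, 6 gained it and 37 changed sign. For gata4:EGFP+ with 1 library left out, 40 lost significance and 38 stayed on their side of the threshold. With a minimum mean of 30, all peaks called numbered 840 for gata4:EGFP+, 1977 for junba OE and 2050 for junbb OE against myl7:nucDsRed+ libraries and 7 for junba against junbb. At a minimum of 10 they numbered 2795, 3857, 4259 and 13. Fewer peaks were tested at 30. Of the member peaks only both of ugdh and those of itgb5 and col1a2 were then tested. The calls among them were 2 for gata4:EGFP+, 0 for junba OE and 1 for junbb OE. A pseudocount of 1 left 1738 calls for gata4:EGFP+, fitting only the 2 groups left 1 member call for junba, centring on start-site peaks left 4 for junbb, and estimation without trend or robustness left 4 peaks between junba and junbb. The cause of these was not tested. Leaving out 1 library gave 677 to 1349 calls for gata4:EGFP+ (fewest without gata4:EGFP+ replicate 2), 2020 to 4372 for junba (fewest without myl7:nucDsRed+ replicate 2), 2078 to 2888 for junbb (fewest without junbb OE replicate 2) and 1 to 326 between junba and junbb (most without junba OE replicate 1). Member calls ran from 3 to 6, 1 to 4 and 3 to 4 for the first 3. The A-Fos comparison had 0 calls under every setting.

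Values near 0 changed sign. For gata4:EGFP+ lamb1a became −0.08 with a pseudocount of 1 and −0.26 with quantile normalization. For junba the ugdh start-site peak became 0.10 with equal totals and 0.13 with quantile normalization, and the upstream ugdh peak 0.01 with quantile normalization. For junbb the upstream ugdh peak became 0.12 with equal totals and fn1a −0.01 centred on start-site peaks. Between junba and junbb the upstream ugdh peak became 0.07 with a pseudocount of 1 and 0.16 with quantile normalization. For A-Fos, equal totals (median of all peaks −0.24) gave −0.21 for ugdh and −0.06 for itgb5. With 1 library left out, lamb1a ran from −0.50 to 0.62 for gata4:EGFP+. For junba the ugdh start-site peak ran from −0.36 to 0.34, the upstream ugdh peak from −0.38 to 0.16, col5a2a from −0.59 to 1.26 and sparc from −0.03 to 1.32. For junbb the upstream ugdh peak ran from −0.84 to 0.69 and fn1a from −0.19 to 0.47. Between junba and junbb the ranges were −0.70 to 0.00 (ugdh start-site), −0.79 to 0.73 (upstream ugdh), −0.77 to 0.39 (timp2b), −0.99 to 0.46 (col6a1), −1.21 to 0.14 (sparc) and −0.55 to 0.24 (lamb1a). For A-Fos they were −0.27 to 0.40 (ugdh) and 0.00 to 0.47 (itgb5).

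Pairing by replicate number was not established: deviations of same-numbered libraries correlated at −0.03 to 0.02 in the shared table and at 0.28, 0.26 and 0.08 in the A-Fos table, where each of 6 libraries correlated best with its own number, a hint from the data and not from the design. With the replicate number as a block, 2744, 3882, 4250, 17 and 0 peaks were called for gata4:EGFP+, junba, junbb, junba against junbb and A-Fos. The member calls under the block were 9, 4, 7, 0 and 0, the added one being the 129 bp itga5 peak for junba (limma, adjusted p = 0.0416). Leaving out 1 library of a group of 2 assumes that the lone library varies like the other groups.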
